A study of Mus musculus with 4 samples.

Results

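The normal liver profile describes the messenger and noncoding RNA pool of mouse liver as 1 set of gene levels, from the most to the least abundant gene. It is the mean of 2 count tables out of the 4 in the series. The first is labelled normal liver of a mouse with the genotype beta-2SP+/- ; SMAD3+/-, so heterozygous for beta-2 spectrin and for SMAD3. The second is labelled wild type normal liver. The other 2 tables are liver tumours labelled with the double heterozygous genotype, and they appear only as values set beside the profile. Age, sex, diet, hour of sampling and the number of animals are not given in the labels. Levels are in CPM, a gene's reads per 1000000 reads counted in genes of that table. Members are the genes with 1 or more CPM in both normal tables, 11107 of 25793 listed symbols. This is the share to set beside each count of detected genes below.

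The tables are not replicates of normal liver, because they share counts. Among genes with a mean count from 1 to 5, both tables held the very same count for 56.9% of 2483 genes, where 2 independent libraries of these depths would give 22.6% under Poisson counting. The table labelled wild type held the lower count in only 3.66% of those genes. For mean counts from 5 to 50 equal counts made up 14.1%, against 6.95%, but from 50 to 500 they made up 0.740%, against 1.07%. Its total was 18448621 gene counts, against 15950426 in the table labelled double heterozygous. No genotype contrast is therefore drawn, the profile counts as 1 sample, and each result is given as the mean with the value in both tables. Where a pair of values is printed for 1 gene or class, the double heterozygous label comes first and the wild type label second, and a single value is the mean. A share of the pool carried an exact binomial (Clopper-Pearson) 95% interval at most 0.0432 percentage points wide for any functional class. Without molecular identifiers, such an interval speaks for counting error alone and says nothing about other animals.

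The liver builds most of the proteins of blood plasma and exports lipid in lipoproteins. Its hepatocytes also release glucose, turn ammonia into urea, make bile acids from cholesterol and clear drugs and hormones with oxidising and conjugating enzymes. Hepatocytes fill most of the organ's volume, and a smaller population of sinusoidal endothelial cells, Kupffer macrophages, stellate cells and bile duct cells lives between them. Hepatocytes near the portal vein and near the central vein differ in their enzymes, a pattern called zonation.

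The tissue label was checked against marker genes. All 12 hepatocyte markers were detected, and together they summed to 131388 and 123334 CPM. The lowest of them, the asialoglycoprotein receptor subunit Asgr1, stood at 444 and 424 CPM. The submitters' short descriptions call both samples hepatocytes and name T cells for both tumours, whereas the tissue label of all 4 says liver. Markers of other liver cells were present in both tables, with 17 of 18 endothelial, 15 of 17 Kupffer cell and 11 of 14 stellate cell genes at or above 1 CPM. Fewer cells of a type and less RNA per cell cannot be told apart in such bulk samples.

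Stretches of promoter are shown first, because the most abundant genes and those from 10 to 100 CPM differed in the letters around their start sites. The stretches are from RefSeq on GRCm38.p6, run 5′ to 3′ on the gene's strand, and are the 80 bases just before the listed start. Alb encodes albumin, Gc the vitamin D carrier, Cyp2e1 a P450 that oxidises ethanol, and Pck1 the cytosolic enzyme that commits oxaloacetate to glucose. Ppara encodes the nuclear receptor for fatty acids. Capitals mark GTTAAT, a core of the HNF1 motif, in Alb and Gc, TATAAA in Cyp2e1, TATATA in Pck1, and every CG in Ppara. The stretches are chr5:90460790-90460869 (plus strand) for Alb, chr5:89457899-89457978 (minus) for Gc, chr7:140763739-140763818 (plus) for Cyp2e1, chr2:173152993-173153072 (plus) for Pck1 and chr15:85735696-85735775 (plus) for Ppara.
Alb: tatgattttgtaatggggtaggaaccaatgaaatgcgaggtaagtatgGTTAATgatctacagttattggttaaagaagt
Gc: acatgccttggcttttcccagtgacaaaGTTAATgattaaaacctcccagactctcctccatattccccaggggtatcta
Cyp2e1: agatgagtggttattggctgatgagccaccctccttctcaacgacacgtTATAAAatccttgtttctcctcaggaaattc
Pck1: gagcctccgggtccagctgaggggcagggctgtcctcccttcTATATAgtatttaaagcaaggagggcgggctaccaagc
Ppara: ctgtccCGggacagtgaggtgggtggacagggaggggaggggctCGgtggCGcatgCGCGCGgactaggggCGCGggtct
The marked motif begins 32 bases before the start in Alb, 52 in Gc, 31 in Cyp2e1 and 38 in Pck1. The Ppara stretch holds 8 CG pairs, against 1 in Alb and 0 in Gc. With a mean of 472 CPM, Ppara belongs neither to the most abundant genes nor to those from 10 to 100 CPM.

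These letters were then counted over all promoters. TATAAA or TATATA was searched on the gene's strand from 45 to 15 bases before the start, and GTTAAT on both strands in the 250 bases before it. Of 129 genes with at least 1000 CPM, 94 matched the promoter table, with 113 promoters. Among these, 14.2% held TATAAA or TATATA and 19.5% held GTTAAT, and the median promoter had 3 CG pairs. Genes from 10 to 100 CPM stood lower on both motifs, at 1.14% and 4.19% of 5679 promoters, with a median of 17 CG pairs. Over all 32851 promoters in the table the shares were 2.96% and 6.43%, with a median of 6 CG pairs. Genes from 100 to 1000 CPM stood close to these shares, at 3.30% and 6.41%, but had a median of 14 CG pairs. GTTAAT was found in 23.1% of 156 promoters of the plasma and urinary protein classes and in 11.6% of 43 P450 promoters. TATAAA or TATATA was found in 12.2% and 18.6% of these. Of 46 ribosomal protein promoters 8.70% held TATAAA or TATATA and 6.52% GTTAAT. Among citric acid cycle and respiratory chain genes, 0 of 96 promoters held TATAAA or TATATA, and 2.08% held GTTAAT. Of the 102 detected genes of that class 71 lie from 10 to 100 CPM, where the shares were also low, at 1.14% and 4.19%. Genes with 0 counts in both tables also had CG-poor promoters, with a median of 3 pairs, and of their 6024 promoters 6.61% held TATAAA or TATATA and 8.22% held GTTAAT. A match of letters is a description and does not show that a factor binds there.

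The pool was concentrated in few genes. Albumin alone, the main carrier protein of plasma, held 6.63% of all gene counts, with 67925 and 64764 CPM in the 2 tables, or 6.79% and 6.48%. The 10 most abundant genes held 20.2% and the 100 most abundant 46.7%. Of the pool, 50% lay in 130 genes, 75% in 907 and 90% in 3070. In the tumours the same 50% was spread over 950 and 1106 genes, and their own 10 most abundant genes held 7.32% and 6.03%.

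**Figure D1:**
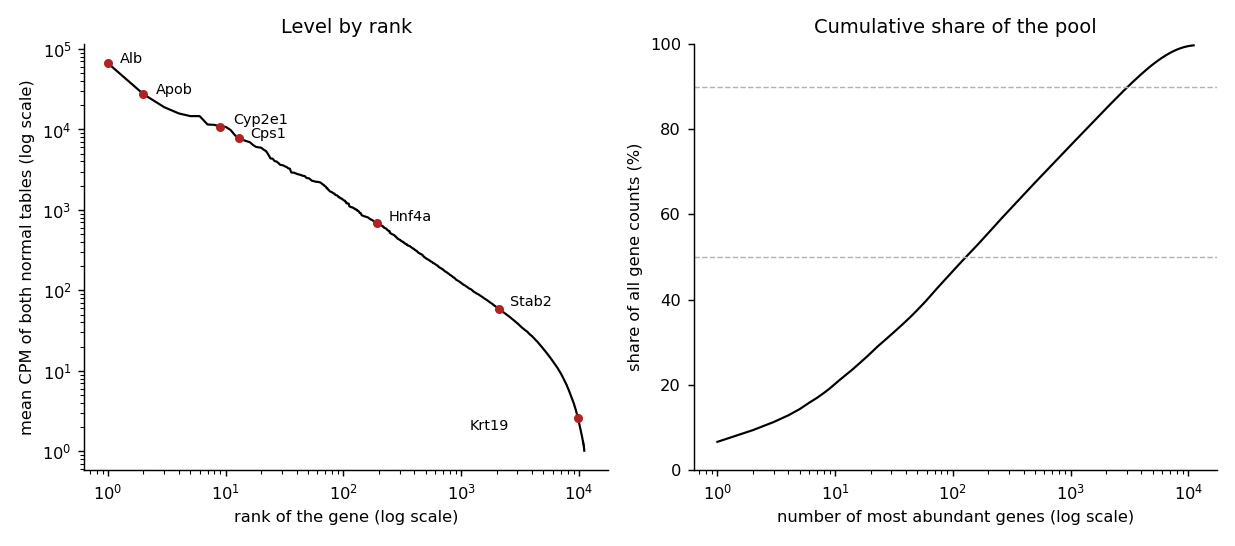
Left, mean CPM of both normal tables against the rank of the gene, for the 11107 detected genes, both axes logarithmic, with 7 genes marked as examples. Right, the cumulative percent of all gene counts against the number of most abundant genes (log axis), with dashed lines at 50% and 90%. The curve crosses them at 130 and 3070 genes.

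The abundance ranges differed in what they held. At or above 10000 CPM stood 10 genes: Alb, Apob, Trf, Apoe, Serpina3k, C3, Pzp, Rn18s, Cyp2e1 and Malat1. Of these, 7 encode plasma proteins, 1 a P450 and 2 noncoding RNAs. From 1000 to 10000 CPM there were 119 genes with 29.8% of the pool. Among them 47 belonged to the plasma and urinary protein classes, 23 to drug, steroid and bile acid handling and 18 to central metabolism. From 100 to 1000 CPM the 1112 genes held 28.9%, and here central metabolism (167 genes) outnumbered the plasma and urinary protein classes (79). The 5563 genes from 10 to 100 CPM held 18.8%, with 529 genes of general cell functions. The 4303 genes from 1 to 10 CPM held 1.97% of the pool. The limit itself fell at 16 counts in the table labelled double heterozygous. Arl6, A330040F15Rik and 9530082P21Rik lay just inside with 1.00 CPM there, and Cntln, Galntl4 and 6030443J06Rik just outside with 0.976 CPM in the table labelled wild type. The 14686 genes below the limit held 0.319% of the pool, and 9535 of them had 0 counts in both tables.

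Reads grow with the length of a transcript, so levels of transcripts were compared after division by exonic length and rescaling to a sum of 1000000 (per-length level). Ranks, ranges and shares by CPM describe the division of the reads. A length was matched for genes that hold 97.3% of the pool. Albumin stayed first, with a per-length level of 77630 and 73519. Apolipoprotein B, the structural protein of very low density lipoprotein, has a very long transcript: it was the second gene by CPM (29094 and 25804) but had a per-length level of 4564. Apolipoprotein A2, whose transcript is short, moved from place 20 by CPM to place 4, with 25213 and 26017. Apoa1, the main protein of high density lipoprotein, reached 22012 and Apoe 19930. In the paragraphs on single classes, CPM values give each gene's share of the counts and do not rank transcripts of different length. The 20 highest genes per length comprised 15 plasma or urinary protein genes, 3 noncoding RNAs, Cyp2e1 and the predicted gene Gm5775.

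All genes were sorted into functional classes that do not overlap. The 8 classes of plasma and urinary proteins held 35.4% of the pool (35.6% and 35.2% in the 2 tables), or 39.7% per length. They include genes of lipoprotein handling that are not secreted, such as the receptor Lrp1. The 6 classes of central metabolism held 10.4% in both tables. P450 enzymes, other oxidoreductases, conjugation and bile acid genes together held 9.36% (9.12% and 9.61%). In contrast, 7 classes of functions that every cell needs, from ribosomes and translation to the cytoskeleton, held 5.997% (5.73% and 6.27%). Genes in no class numbered 7770 among those detected and held 26.0%, at a median of 13.7 CPM. The class shares lay within 1.2-fold of each other in both tables for 28 of 32 classes.

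**Figure D2:**
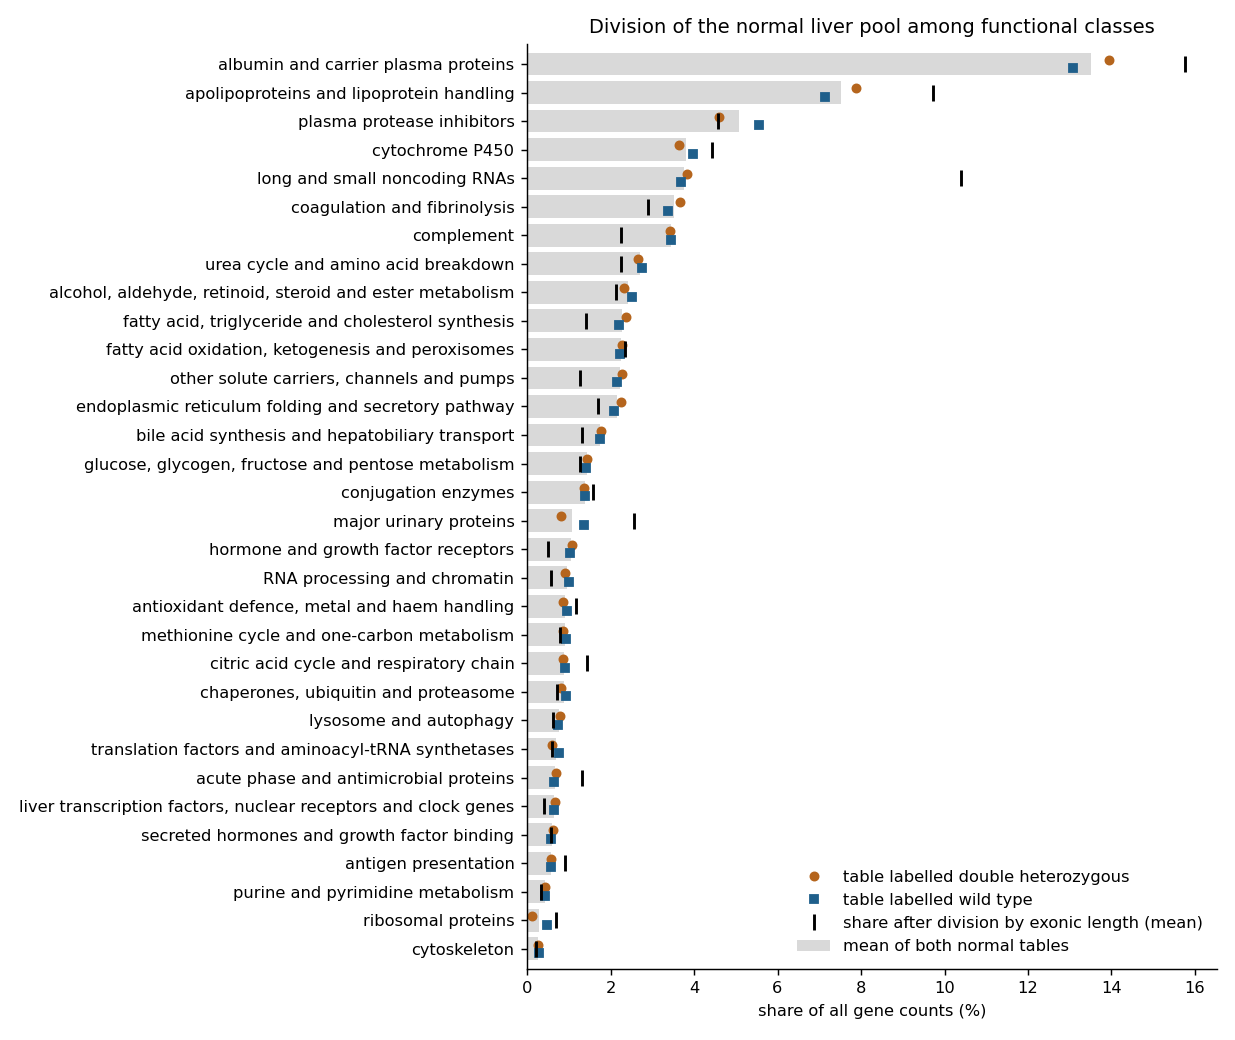
Share of all gene counts (%) held by each functional class in normal liver. Bars give the mean of both tables, circles the table labelled double heterozygous, squares the one labelled wild type, and black ticks the mean share after division by exonic length. Albumin and carrier proteins lead at 13.5%, and noncoding RNAs move most with length, from 3.75% to 10.4%, although Rn18s has no matched length and enters the first share only.

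Carrier proteins of plasma were the largest class, with 13.5% of the pool (13.9% and 13.1%). After albumin came Trf, which carries iron, with 19515 and 18334 CPM. Trf has sequence in common with another annotated gene for 61.7% of its 31-mers, so its count is uncertain. Ahsg, the fetuin that binds calcium phosphate, stood at 8895 and 7990 CPM. Gc followed at 7243 and 7070, and Sepp1, which carries selenium, at 7399 and 6516. Ttr, the carrier of thyroxine and retinol-binding protein, stood at 5063 and 4672 CPM, and Hpx, which binds haem, at 4215 and 3888. In all of these the table labelled double heterozygous was slightly the higher. The class was led strongly by its top genes and 14 of its 21 detected members exceeded 1000 CPM.

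Apolipoproteins and lipoprotein handling held 7.52% of the pool and 9.73% per length. Apob led by CPM, and Apoe, which directs remnants to their receptors, stood at 16747 and 14875 CPM. Apoa1 had 10395 and 9273 CPM, and Apoa2 5824 and 6051. Lrp1, a receptor that takes up remnants, had 4007 and 3656 CPM but a per-length level of only 544. This class therefore joins secreted proteins of high per-length level with a long receptor transcript of lower level.

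Plasma protease inhibitors held 5.07% of the pool (4.59% and 5.56%). Serpina3k, a serpin of the expanded mouse antichymotrypsin family, led with 12460 and 16862 CPM. Pzp, an alpha-2-macroglobulin relative that traps proteases, had 11926 and 11138. Mug1, of the same family, had 4125 and 8044 CPM. Serpina3k and Mug1 share sequence with other genes (27.9% and 41.8% of 31-mers), whereas Pzp shares 5.47%. The former were higher in the table labelled wild type, and Pzp was slightly lower there. Itih4 and Serpina1b, an alpha-1-antitrypsin copy, stood at 3261 and 2774 CPM in the mean.

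Coagulation and complement were of like size, at 3.52% and 3.44% of the pool. The 3 fibrinogen chains, which form the clot, had mean CPM of 5996 (Fga), 4339 (Fgb) and 3560 (Fgg), and per-length levels of 4615, 2639 and 3941. Plg, the precursor of the clot-dissolving plasmin, had 3605 CPM and Serpinc1, the antithrombin, 2757. Complement C3, on which all activation routes converge, had 15051 and 14249 CPM. C4b, Cfb, Hc (complement C5) and Clu followed between 1964 and 2355 CPM. C4b differed between the tables more than the others, with 1703 and 3008 CPM. Of 33 detected coagulation genes 28 reached 100 CPM or more, and of 29 detected complement genes 24 did.

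Acute phase proteins rise in blood during inflammation. They held 0.660% of the pool, most of it Hp, the haemoglobin-binding haptoglobin, with 4195 and 3788 CPM. Saa4, Orm1, Crp and Lrg1 stood between 330 and 550 CPM. Secreted hormones and growth factor binding proteins held 0.599%, led by Igfbp4 (2045 and 1824 CPM), Igf1 (1096 and 977) and Igfbp2 (1020 and 913). Agt, the precursor of angiotensin, had 872 CPM and the chemerin gene Rarres2 320. Antigen presentation held 0.568%, with the secreted class I gene H2-Q10 at 1625 CPM, H2-K1 at 1430 and B2m, the light chain that they share, at 1426.

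Major urinary proteins carry pheromones in mouse urine and are made in liver. The family held 0.805% and 1.36% of the pool in the 2 tables, and 2.57% per length in the mean. Mup3 had 4191 and 6567 CPM, and Mup10 2544 and 4387. Mup21, Mup7 and Mup20 followed at 589, 525 and 294 CPM. All 20 listed members have shared sequence, with 32.3% of 31-mers in Mup3 and 26.0% in Mup21, but 81.4% in Mup10 and 95.1% in Mup7. Reads that align to several places are not in the gene counts. The split of reads among the members and the family total are therefore uncertain. Of 20 listed members 10 were detected.

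Cytochromes P450 held 3.81% of the pool (3.65% and 3.98%), with 53 of 89 listed genes detected. Cyp2e1 made up 28.4% of the class on its own, with 11130 and 10540 CPM. The Cyp3a subfamily, which oxidises steroids and many drugs, made up 21.2%, mostly through Cyp3a11 (5408 and 7455 CPM). Cyp2c genes made up 14.6%, led by Cyp2c29 (2078 and 2521 CPM), and Cyp2d genes 9.75%, led by Cyp2d9 (1455 and 1735). Cyp2f2 followed with 2741 and 2518 CPM. Shared sequence was found for 13 of 16 Cyp2c and 8 of 9 Cyp3a genes, but not for Cyp2e1 or Cyp2f2 at the limit used. Cyp1a2 (1193 CPM) and Cyp2a5 (1340 CPM) were each the leader of their subfamily, and the phenobarbital-inducible Cyp2b10 stood at 58.3 CPM.

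Other oxidoreductases and esterases held 2.42%. The carboxylesterases Es31, Es1 and Ces3, which cleave ester bonds in drugs and lipids, had 2651, 2275 and 1464 CPM. Por, the reductase that hands electrons to the P450 enzymes, had 1569 and 1476 CPM, and Aox3, an aldehyde oxidase, 1231 and 1172. Conjugation enzymes held 1.38%, with 36.9% of the class in the Ugt2b glucuronosyltransferases and 21.3% in the microsomal glutathione transferases. Mgst1 stood at 3057 and 2789 CPM and Ugt2b1 at 1684 and 1633. Ugt2b5, Ugt2b34 and Ugt2b36 lay between 900 and 1091 CPM. Of the sulfotransferases, Sult1d1 had 177 CPM.

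Bile acid synthesis and hepatobiliary transport held 1.75%, and all 33 listed genes were detected. Slco1b2, an uptake transporter of the sinusoidal membrane, led with 2919 and 2709 CPM. Scp2, a peroxisomal sterol carrier and thiolase, had 1998 and 2483, and Abcc2, the canalicular pump for conjugates, 1401 and 1382. Slc27a5, which activates bile acids for conjugation, had 1370 and 1233 CPM, and Slco1a1 1031 and 1084. Cyp7a1, the rate-limiting enzyme of bile acid synthesis, stood at 763 and 687 CPM.

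In central metabolism, the urea cycle and amino acid breakdown led with 2.70% of the pool. Cps1, which fixes ammonia at the entry of the urea cycle, had 7892 and 7724 CPM. Tat, Tdo2 and Hpd, which break down tyrosine and tryptophan, stood at 2145, 1490 and 945 CPM. The methionine cycle and one-carbon class held 0.902%, with Mat1a, which makes S-adenosylmethionine, at 2723 and 2678 CPM. Its next members were Aldh1l1 at 1073 CPM, Sardh at 851, Gnmt at 771 and Dmgdh at 674.

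Lipid synthesis and fatty acid breakdown held almost equal shares, 2.28% and 2.25%. Scd1, the desaturase that makes oleate, was the leading lipid synthesis gene, with 7914 and 6933 CPM. Lpin1, Dgat2 and Elovl2 stood at 1674, 978 and 844 CPM. On the breakdown side the fatty acid activators Slc27a2 and Acsl1 had 2907 and 2727 CPM in the mean. The binding protein Fabp1 had 1405 CPM. Per length, the breakdown class held 2.35% and lipid synthesis 1.40%.

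Glucose, glycogen, fructose and pentose metabolism held 1.42%. Pck1 led with 4499 and 4221 CPM. H6pd had 1038 CPM, and Pcx and G6pc, both enzymes of glucose production, 671 and 670. The citric acid cycle and respiratory chain, here nuclear genes only, held 0.883% by counts and 1.43% per length. Atp5b and Atp5a1, subunits of the ATP synthase, led with 766 and 635 CPM, before Sdha, Mdh1 and Ogdh between 240 and 375 CPM. Purine and pyrimidine metabolism held 0.419%, with Uox, which breaks down urate, at 1204 CPM. Dpyd, Upp2, Dpys and Adk lay between 354 and 681 CPM.

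Membrane transport outside bile acids held 2.22%. The amino acid carriers Slc38a3, Slc7a2 and Slc38a4 led with 2484, 2204 and 2101 CPM, and Abca6 had 758. Receptors for hormones and growth factors held 1.05%. Pigr, which carries immunoglobulin A across epithelia, stood at 2297 CPM, Egfr at 2212, the LIF receptor Lifr at 1526 and the growth hormone receptor Ghr at 861. These receptor transcripts are long, and per length the class held 0.492%.

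The classes of general cell functions were led by the secretory pathway. Folding and secretion in the endoplasmic reticulum held 2.16%, led by the disulfide isomerase P4hb (2352 and 2107 CPM), Tmbim6 (1848 and 1733) and the chaperones Hspa5 (1470 and 1296) and Hsp90b1 (1324 and 1197). Herpud1 had 1079 CPM. RNA processing and chromatin held 0.955%, with Prpf8, Ddx5, Smarca2, Rbm47 and Sf3b1 between 227 and 342 CPM. Other chaperones, ubiquitin and proteasome genes held 0.874%, led by Hsp90ab1 at 741 CPM. Lysosome and autophagy genes held 0.759%, led by Lamp1 (816 CPM), Lamp2 (815) and Psap (639). Outside these general classes, antioxidant, metal and haem genes held 0.909%, led by catalase (Cat, 1926 and 1788 CPM), Ftl1 (669 and 1168) and Alas1 (741 and 798). Ftl1 shares 68.2% of its 31-mers with other genes.

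Ribosomal proteins held the share with the largest ratio between the tables, at 0.108% and 0.475%, while protease inhibitors differed by more percentage points. The detected members, 50 of 85 listed, had a median of 33.1 CPM. Rps3 had 104 and 108 CPM, and Rpl8 122 and 110. In contrast Rpsa had 28.9 and 143 CPM. Ribosomal protein genes have many processed copies in the mouse genome, and 73 of the 85 listed have shared sequence. Without genes with shared sequence the class came to 0.0621% of the pool that remained. Translation factors held 0.691%, with the elongation factors Eef1a1 at 807 and 1710 CPM and Eef2 at 946 and 1028. The cytoskeleton was the smallest class, at 0.270%, with Actb at 473 and 514 CPM and Myh9 at 344 in the mean.

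Liver transcription factors, nuclear receptors and clock genes held 0.650% of the pool, with 83 of 88 listed genes detected. Hnf4a, the nuclear receptor that maintains hepatocyte identity, led by CPM with 710 and 653, at place 194 of all genes on that scale. Ppara followed with 484 and 460 CPM, and Creb3l3, a membrane-bound factor of fasting metabolism, with 408 and 406. Rxra, the partner of many nuclear receptors, had 367 and 331. Mlxipl, the carbohydrate-sensing factor, had 280 and 317 CPM. Per length Creb3l3 (411) stood above Hnf4a (362) and Ppara (309). The per-length order of the first and second held in both tables, at 414 against 379 and 409 against 345.

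Noncoding RNAs held 3.75% of the pool, the fifth largest share among the 32 classes. The 18S ribosomal RNA gene Rn18s had 12034 and 10786 CPM, and Malat1, a nuclear long noncoding RNA, 11479 and 10051. Rn7sk, which holds back the elongation factor P-TEFb, had 5924 and 5287, Rmrp 3890 and 3380, and Neat1, the scaffold of paraspeckles, 2359 and 2109. Per length, Rn7sk and Rmrp came next after albumin, at 39237 and 29970. Rn18s had no matched length, so the per-length share of the class leaves it out. Both share sequence with other loci, for 70.6% and 44.4% of their 31-mers.

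Predicted and unnamed genes held 3.13%. LOC236598 led with 1677 and 3634 CPM, before Gm4738 (849 and 1339) and 1300017J02Rik (1064 and 970). Among genes in no class, Col18a1 stood first with 2556 and 2413 CPM. It encodes the collagen from which endostatin is cut. The muscle-type carbonic anhydrase Car3 had 1703 and 1690 CPM, Pgrmc1 1621 and 1429, the proteoglycan Sdc4 1284 and 1133 and the ribonuclease Rnase4 1312 and 1093. The other 5 of the 10 highest were Errfi1, Itm2b, Cml2, Qsox1 and Tmprss6, between 784 and 1021 CPM. Tmprss6 is the protease that lowers hepcidin.

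Zonation markers of both ends of the lobule were present. All 17 periportal genes and all 18 pericentral genes were detected, with sums of 18801 and 19872 CPM. The periportal list was led by Cps1 and Pck1, with Arg1, the last urea cycle enzyme, at 617 and 573 CPM. The pericentral list was led by Cyp2e1 and Slco1b2. Glul, the glutamine synthetase of the innermost pericentral cells, stood at 368 and 443 CPM. Axin2 and Lgr5, targets of Wnt signalling next to the central vein, stood at 6.36 and 4.94 CPM. Without the highest gene of each list, the sums were 10993 and 9037 CPM.

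Genes of sex-biased liver programmes were also read, since the labels give no sex. Male-biased genes were detected for 16 of 17 and summed to 7313 CPM, led by Cyp2d9, Slco1a1 and Serpina4-ps1. Female-biased genes reached 1 CPM in both tables for 6 of 20, with a sum of 150 CPM. They were led by Cyp2b10 (58.3 CPM), Fmo2 (28.2) and Cyp3a16 (23.2). Cyp2b13, Sult2a1 and Sult3a1 had 0 counts in both tables, which allows up to 3 uniquely placed reads, or 0.188 and 0.163 CPM. All of them have shared sequence, up to 58.5% of the 31-mers in Sult2a1, so the limit does not cover reads that align to several places. The Y-linked genes Ddx3y, Uty, Eif2s3y and Kdm5d stood at 103, 37.5, 34.6 and 22.7 CPM. Xist, expressed from the inactive X chromosome, had 9 counts in each table, or 0.564 and 0.488 CPM.

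Marker genes of cells other than hepatocytes held a small share of the pool. Over 12 lists of non-parenchymal and blood cell markers, 60 of 132 genes were detected, a share close to the 11107 of 25793 over all listed symbols. The 132 genes summed to 1757 CPM or 0.176% of the pool (0.182% and 0.170%). Sinusoidal endothelial genes summed to 410 CPM, led by Ptprb (92.1 CPM), and the scavenger receptors Stab2 and Stab1 stood at 59.3 and 56.6. Kupffer cell genes summed to 391 CPM, but 217 of these came from the iron exporter Slc40a1. The more specific Clec4f had 31.9 and 30.1 CPM, Vsig4 5.14 and 5.10 and Timd4 1.50 and 1.68. Stellate cell genes summed to 530 CPM, of which the chemokine Cxcl12 gave 378. Reln had 65.2 and 58.4 CPM and Lrat, which stores vitamin A as ester, 7.15 and 6.40.

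Bile duct genes summed to 86.1 CPM, and the anion exchanger Slc4a2 gave 54.9 of these. The duct keratins Krt19 and Krt7 stood at 2.59 and 0.405 CPM. Most leukocyte and platelet markers lay below 1 CPM. Neutrophil and monocyte genes were detected for 0 of 11, NK cell genes for 0 of 8 and T cell genes for 1 of 13, with the T cell sum at 4.40 CPM. Adipocyte genes were detected for 0 of 7, mesothelial genes for 0 of 6, platelet genes for 1 of 5, and fibroblast and smooth muscle genes for 3 of 12 with a sum of 18.4 CPM. The B and plasma cell list came to 264 CPM through Sdc1 (259 CPM) alone, and its other 8 genes stayed below 1 CPM. Dividing cell genes summed to 6.29 CPM, with Mki67 at 1.50 and 1.30 CPM.

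Pancreatic acinar genes, in contrast, were detected for 7 of 8, with a sum of 97.2 and 94.4 CPM. The lipase gene Pnlip had 25.0 and 23.3 CPM, Cela1 18.3 and 17.5, Ctrb1 18.2 and 17.0 and Prss2 5.02 and 6.18. The pancreatic amylase Amy2a5 had 0 counts in both tables, but it shares 64.9% of its 31-mers with other genes, and reads that align to several places are not in the gene counts. Erythroid genes summed to 47.8 CPM, with the alpha globin Hba-a1 at 17.0 and 10.9 CPM and Alas2, which makes haem in red cells, at 17.5 and 15.7. The globins are near-identical copies and their counts are uncertain. Early response genes that rise when tissue is dissociated summed to 322 CPM over 12 genes, led by Hspa1b (89.5 and 63.2 CPM), Jun (53.7 and 46.4) and Dusp1 (47.2 and 49.5). Hspa1b shares 75.3% of its 31-mers with other genes. What part handling of the tissue had in the early response values was not tested.

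**Figure D3:**
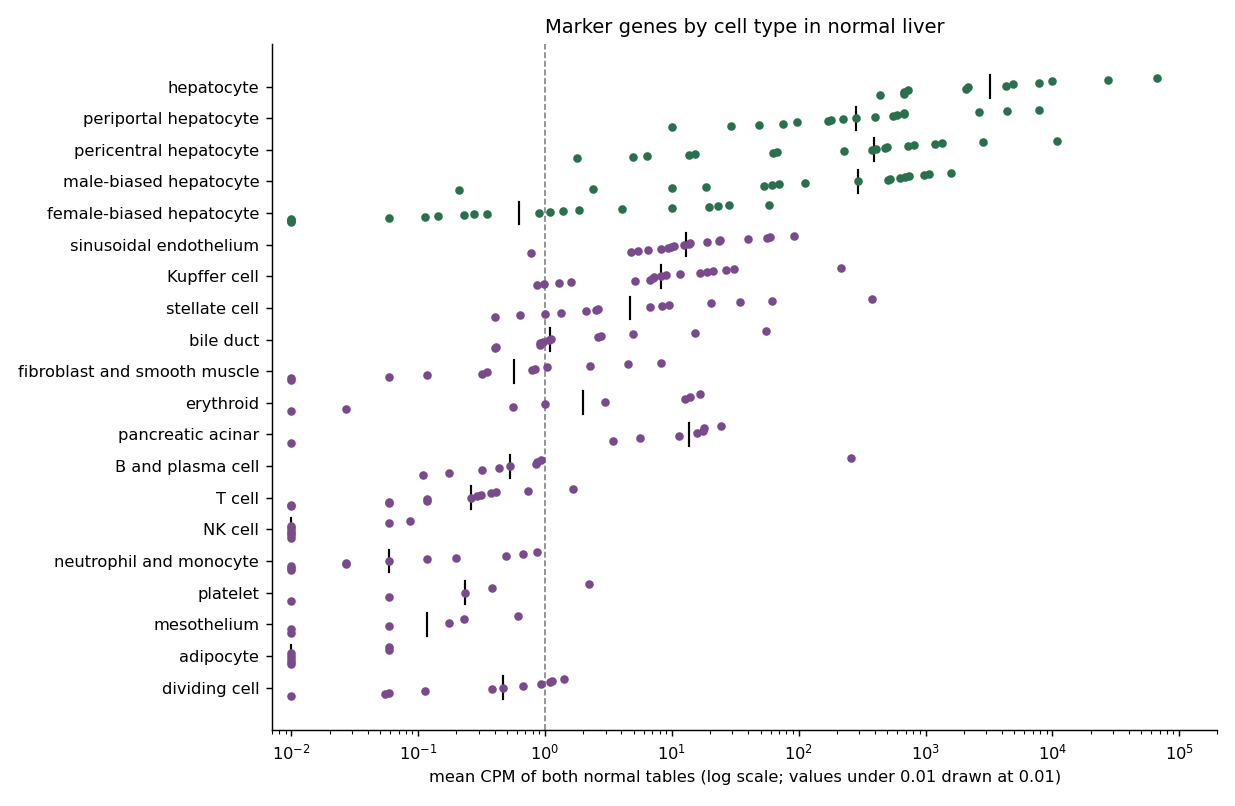
Mean CPM of both normal tables (log axis) for each marker gene, by cell type list. Each point is a gene, black ticks are list medians, and the dashed line is the limit of 1 CPM. Genes of the general hepatocyte list lie between 434 and 66345 CPM, while the highest gene of any non-parenchymal list is Cxcl12 at 378. The other hepatocyte lists reach lower. Their lowest genes stand at 9.96 (periportal), 1.78 (pericentral), 0.211 (male-biased) and 0 CPM (female-biased).

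Gene by gene the tables lay close together, apart from genes with shared sequence, which were 21.5% of detected genes with a matched sequence and held 22.6% of the pool. A difference of over 2-fold was found for 329 of 11107 detected genes, or 2.96%, and 296 of these were lower in the table labelled double heterozygous. Among 1241 genes at 100 CPM or more it was 22, or 1.77%. These comprised 17 of 239 genes with over 10% of their 31-mers in another gene, but only 1 of 983 genes at or below that share. The others had no matched sequence. The largest case with matched sequence was a pair: Gm5424 had 1623 and 44.4 CPM, and Ass1, the urea cycle enzyme argininosuccinate synthase, 61.5 and 1287. In Gm5424, 84.7% of the 31-mers also occur in Ass1. The sum of both genes was 1684 and 1332 CPM.

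The same direction as for Ass1 was seen for most of the other discordant genes. Ahcy, which clears S-adenosylhomocysteine, had 38.1 and 530 CPM, the chaperone Hspa8 76.2 and 457, and the ATPase Vcp 54.6 and 173. Mup9 (103 and 356 CPM) and Gstp1 (117 and 357) differed likewise. Mir715 had 72.0 and 2525 CPM and CU104690.1 3.76 and 234, while Gm3934 had 256 and 2.28. For these last genes no sequence was matched. Alignments that were not unique made up 51.5% of lines in the table labelled double heterozygous and 30.7% in the other, and the part of this in the differences was not tested. For the genes named here the mean is a midpoint of unlike values and describes neither table.

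**Figure D4:**
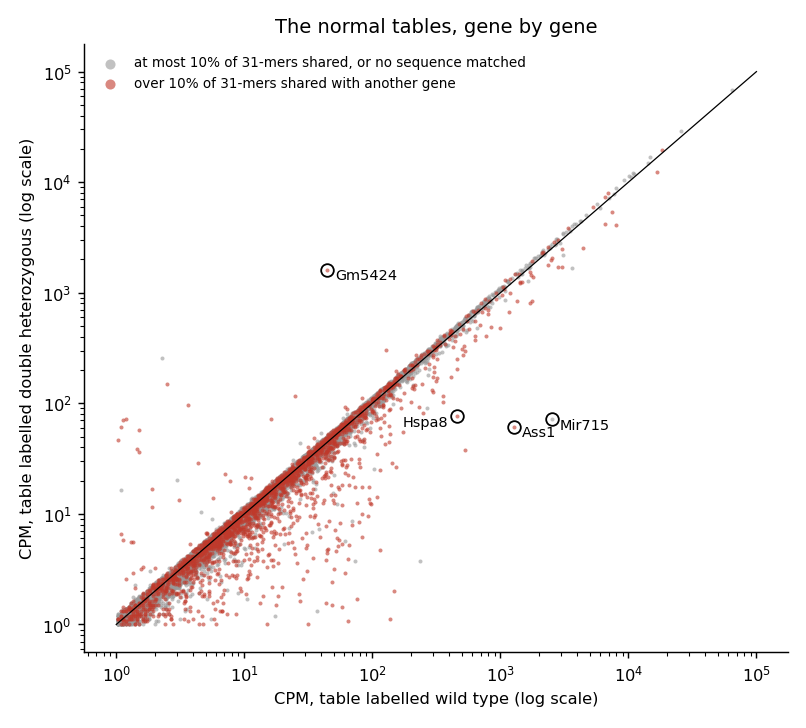
CPM in the table labelled double heterozygous against CPM in that labelled wild type for the 11107 detected genes, both axes logarithmic, with the line of equality. Red points are genes with over 10% of their 31-mers in another gene. Most points lie close to the line, and Gm5424, Ass1, Hspa8 and Mir715 are marked away from it.

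Set beside the tumours, the pool divided in other proportions. Most classes were drawn up around liver functions, and genes of no class, detected or not, held 26.1% in normal liver, 64.5% in tumour 1 and 64.0% in tumour 2. The plasma and urinary protein classes held 35.4% in normal liver, 2.33% in tumour 1 and 1.05% in tumour 2. Central metabolism held 10.4%, against 3.86% and 3.82%, and the genes of drug, steroid and bile acid handling 9.36%, against 1.14% and 0.778%. The classes of general functions held 5.997% in normal liver, 14.6% in tumour 1 and 18.1% in tumour 2. With 1 normal profile against 2 tumours, the smallest p an exact permutation test can give is 0.333, so no test was made. Shares add up to the whole pool, so a class that takes less leaves room for the others.

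Normal liver lay above both tumours in 23 of 32 classes, below both in 6 and between them in 3. Over 14230 genes with 1 or more CPM in the profile or in a tumour, 19.8% lay above both tumours and 68.7% below both. Albumin stood at 66345 CPM in normal liver, 11.1 in tumour 1 and 60.7 in tumour 2. Protease inhibitors had 5.07%, 0.0126% and 0.0113%, and P450 genes 3.81%, 0.0768% and 0.0850%. Complement was the plasma class with the largest share in tumour 1, at 0.892%, against 0.201% in tumour 2. In tumour 1, C3 had 2810 CPM and Clu 5085. The cytoskeleton showed the reverse, with 0.270% in normal liver, 2.93% in tumour 1 and 3.98% in tumour 2. Noncoding RNAs held 3.75%, 4.38% and 3.39%, and endoplasmic reticulum genes 2.16%, 1.88% and 2.13%.

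**Figure D5:**
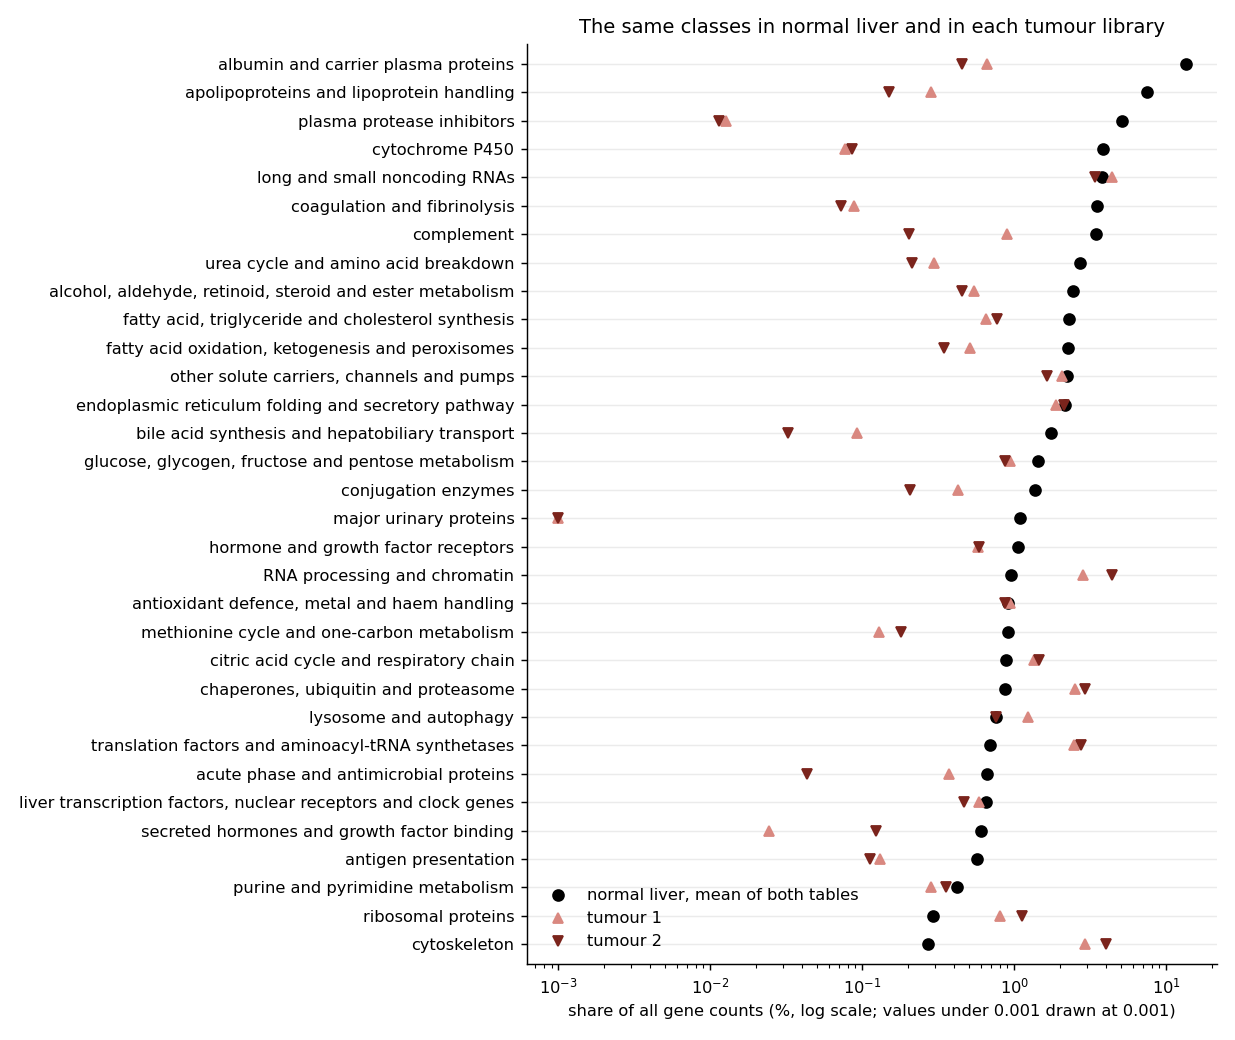
Share of all gene counts (%, log axis) of each functional class in normal liver (circles, mean of both tables), tumour 1 and tumour 2 (triangles); values under 0.001% are drawn at 0.001. Carrier proteins, apolipoproteins, protease inhibitors and coagulation lie far to the right of both tumours, the cytoskeleton, at 0.270%, to their left, and noncoding RNAs between them.

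The marker lists of other cells lay on both sides. Endothelial genes summed to 410 CPM in normal liver, 106 in tumour 1 and 147 in tumour 2. Kupffer cell genes stood at 391, 167 and 88.9 CPM, stellate cell genes at 530, 51.0 and 295, and erythroid genes at 47.8, 0.0905 and 0.226. Of the Kupffer cell sums, Slc40a1 gave 72.9 CPM in tumour 1 and 78.8 in tumour 2, and Lyz2 58.3 and 1.43. The more specific Clec4f, Vsig4 and Timd4 had 0 CPM in both tumours. In the stellate cell list Lrat had 0 CPM in both tumours and Reln 0 and 0.226. Ecm1 had 30.9 and 76.1 CPM there, and Pdgfrb 0.181 and 115. The bile duct sum was higher in the tumours, at 86.1, 5037 and 3596 CPM, and so was the mesothelial sum, at 1.07, 817 and 296. Spp1 gave 2050 and 2221 CPM of the bile duct sums in the tumours, and Msln 793 and 271 of the mesothelial sums. Not all bile duct genes were higher. Cldn7 had 0.958 CPM in normal liver, 0.362 in tumour 1 and 0 in tumour 2. Epcam (2.74, 32.2 and 0.301 CPM) and Cftr (0.904, 42.2 and 0.527) were lower in tumour 2 only. Fibroblast and smooth muscle genes stood at 18.4, 19.4 and 1073 CPM. The 12 lists together held 0.176%, 0.681% and 0.588% of the pools. The part of these cells in the class shares was not tested.

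The tumour libraries also stood apart in their labels and in sex-linked genes. Markers of T cells, which their short descriptions name, summed to 1.45 and 6.17 CPM in the tumours, and hepatocyte markers to 2536 and 435. Of the hepatocyte sums, Apob gave 2309 and 210 CPM and Hnf4a 210 and 150. Only 4 of the 12 hepatocyte markers reached 1 CPM in both tumours. Xist had 498 CPM in tumour 2 and 0 counts in tumour 1. The Y-linked Ddx3y had 0.150 CPM in tumour 2, against 200 in tumour 1 and 103 in normal liver. Several P450 and urinary protein genes are sex-biased, and the part of sex in their shares was not tested.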

How the data were processed

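Whole-transcriptome RNA sequencing of 4 mouse liver libraries was deposited as 1 table of raw read counts per gene for each library, whole numbers with no normalization. Per the labels' protocols, TRIZOL was used to obtain total RNA, and libraries came from an Illumina TruSeq RNA kit. The submitters' processing notes name the build mm9 and the tools TopHat2 2.0.10, HTSeq, DESeq2, FastQC and Trimmomatic, with no role or settings. Whether counting used strand is not given in the sources used here, so reads of overlapping antisense genes cannot be told apart. The 5 lines per table that name no gene were left out. In the normal tables these held alignments outside genes (24.4% of lines in that labelled double heterozygous, 31.5% in that labelled wild type) and alignments that were not unique (51.5% and 30.7%).

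CPM was computed from each table's own total of gene counts, 15950426 and 18448621, and averaged. A floor of 3 counts corresponds to 0.188 and 0.163 CPM, and the tumours had 11049931 and 13295216 gene counts. Every gene entered the first of 34 classes whose list or symbol pattern it met. The class of mitochondrially encoded genes matched no symbol, and the count of 32 classes leaves out it and the predicted genes. Exonic length and shared 31-mers (a sample of 1 in 16) came from GENCODE M21 on GRCm38, which 89.3% of symbols matched, older names through RefSeq synonyms. Genes with over 10% of their 31-mers in another gene, overlapping annotations included, are called genes with shared sequence. No coordinate comes from the counts. Promoters are RefSeq's, on GRCm38.p6, with 250 bases before the start.

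Named genes are the 30 highest by CPM, the 5 highest per class, the 3 highest and first 3 of each marker list, the 20 highest per length, 3 on each side of the limit, the 10 highest of no class and the 10 with the largest ratio between the normal tables at 100 CPM or more. Other genes in the text (Cyp7a1, Cyp1a2, Cyp2a5, Axin2, Lgr5, Sult1d1, Sult2a1, Sult3a1, Kdm5d, Amy2a5, Lyz2, Ecm1, Pdgfrb, Cldn7 and Cftr) were chosen after their values were seen. Some genes that this rule names are not reported here. The members and lists were chosen with earlier results of these data known. The scripts used Python 3.11.15, pandas 2.3.3, scipy 1.17.1 and, for alternative scaling, edgeR 4.0.16 and DESeq2 1.42.0 in R 4.3.3. They were tested on simulated data, and no test across genes was run.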

Additional observations from a re-analysis of the deposited data

How the results depend on the processing

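The alternatives left out either normal table, summed their counts, scaled with edgeR TMM or DESeq2 size factors, set the limit at 0 or 5 CPM, left out genes with shared sequence, or divided by exonic length. Leaving out noncoding RNA genes was added after seeing the data. Where genes were left out, or the limit was 5 CPM, a share is of the pool that remained and not of all gene counts. The number of detected genes stayed within 1.5-fold of 11107 under all of them, from 8291 at 5 CPM to 16258 with no limit. Genes that hold 50% of the pool fell from 130 to 61 per length. The share of the top 10 genes was 19.7% to 20.7% in single tables, 20.2% from summed counts, 20.5% at 5 CPM, 24.2% without shared sequence, 27.2% per length and 20.6% without noncoding RNAs. For plasma and urinary proteins the values were 35.2% to 35.6% in single tables, then 35.8% at 5 CPM, 34.8% without shared sequence, 39.7% per length and 36.8% without noncoding RNAs. For P450 genes they were 3.65% to 3.98%, 3.82% summed, 3.86%, 2.67%, 4.43% and 3.96% in the same order. Ribosomal proteins ran from 0.108% to 0.475%, with 0.305% summed, 0.181%, 0.0621%, 0.694% and 0.303%. Central metabolism gave 10.5% at 5 CPM, 10.3% without shared sequence, 9.51% per length and 10.8% without noncoding RNAs. The sum of non-parenchymal markers was 1697 to 1817 CPM in single tables. TMM and DESeq2 scaling moved no share beyond its counting error, but they could hardly do so. A single factor per table cancels within that table and changes only its weight in the mean. With the limit at 0 the shares cannot change, because all gene counts enter them in either case. In these changes the cause was not tested, except that fewer genes enter where a filter removes them. No paired analysis was possible because no result comes from a test and the normal tables share counts. Counts limit single genes below about 3 counts, and the number of animals behind the profile is not given.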
